A study of Mus musculus with 2 samples.

Results

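Trypsinogens are the inactive precursors of trypsin, the digestive protease that pancreatic acinar cells store in zymogen granules. The set described here holds 8 genes, 7 trypsinogens (Prss1, Prss2, Prss3, Try4, Try5, Try10 and 2210010C04Rik) and the trypsin inhibitor Spink3, now named Spink1. They were chosen by gene symbol in the authors' deposited summary of 41345 probe sets, and each had 1 probe set. The choice was made with their values on these arrays known, so the values below are a description and were not tested.

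Stomach RNA of 2 mice aged 12 weeks was hybridised, with 1 mouse and 1 array for each genotype. The MIST1-LSL mouse carried Atp4bCre and MIST1-LSL, an allele from which MIST1 is made once Cre has removed a stop cassette. The control mouse carried Atp4bCre alone, so both had Cre under the promoter of the proton pump subunit gene Atp4b, which is active in parietal cells. The strain was a mixed background backcrossed to C57/B6, and the tissue is called corpus in the sample labels but whole stomach in the design text. With 1 array per genotype there was no replicate check, no SD and no p-value, and differences between genotypes cannot be told apart from differences between 2 mice or 2 dissections. Bhlha15, which encodes MIST1, read 5.30 on the array labelled MIST1-LSL and 5.26 on the control array, a difference of 0.04 that gives the label no support. Which part of the transcript its probes cover is not known here, and a transgene without that part would not be seen, so the name MIST1-LSL below stands for the label. Levels are on the log2 scale, differences are MIST1-LSL minus control, and a level of 4.62, the median of all probe-set values, was used as a floor below which signal was not taken as measured.

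In the pancreas, trypsinogen is secreted with the other zymogens and is cut to trypsin in the gut by enteropeptidase. Trypsin then activates further trypsinogen and the precursors of chymotrypsins, elastases, carboxypeptidases and phospholipase. Spink1 is a Kazal-type inhibitor packed in the same granules, where it blocks trypsin that forms too early, and cathepsin B, a lysosomal protease, can activate trypsinogen inside the cell. MIST1, the product of Bhlha15, is a helix-loop-helix transcription factor found in acinar cells and gastric chief cells, and it binds DNA at E-boxes.

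The promoters of 5 trypsinogens are shown because these copies lie in 1 gene cluster yet differed in how far apart the arrays read them. The sequences are RefSeq's for build GRCm38.p6 on mouse chromosome 6, from 250 bases before to 50 bases after the gene's start. They are chr6:41521526-41521825 on the plus strand for Prss2, chr6:41035460-41035759 on the minus strand for 2210010C04Rik, chr6:41302022-41302321 on the plus strand for Try4, chr6:41458680-41458979 on the plus strand for Prss1 and chr6:41377564-41377863 on the minus strand for Prss3. Capitals mark the E-box CANNTG and the TATA motif TATAAA.
Prss2: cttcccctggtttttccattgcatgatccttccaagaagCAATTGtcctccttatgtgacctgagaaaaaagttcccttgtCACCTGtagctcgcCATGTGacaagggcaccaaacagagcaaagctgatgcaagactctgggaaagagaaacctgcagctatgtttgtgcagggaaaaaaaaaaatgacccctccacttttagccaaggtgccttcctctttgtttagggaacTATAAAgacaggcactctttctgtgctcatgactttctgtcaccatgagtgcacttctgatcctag
2210010C04Rik: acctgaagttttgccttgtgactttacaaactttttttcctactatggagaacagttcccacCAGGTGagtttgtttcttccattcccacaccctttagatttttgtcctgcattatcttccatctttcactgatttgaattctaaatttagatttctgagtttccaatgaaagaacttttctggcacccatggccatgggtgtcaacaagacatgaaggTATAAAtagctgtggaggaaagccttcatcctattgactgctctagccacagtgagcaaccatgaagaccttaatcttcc
Try4: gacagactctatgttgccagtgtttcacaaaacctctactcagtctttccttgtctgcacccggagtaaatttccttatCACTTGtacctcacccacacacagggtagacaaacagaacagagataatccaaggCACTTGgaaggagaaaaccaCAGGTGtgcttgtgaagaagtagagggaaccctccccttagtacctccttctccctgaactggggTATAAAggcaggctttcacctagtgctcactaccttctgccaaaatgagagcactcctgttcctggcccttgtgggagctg
Prss1: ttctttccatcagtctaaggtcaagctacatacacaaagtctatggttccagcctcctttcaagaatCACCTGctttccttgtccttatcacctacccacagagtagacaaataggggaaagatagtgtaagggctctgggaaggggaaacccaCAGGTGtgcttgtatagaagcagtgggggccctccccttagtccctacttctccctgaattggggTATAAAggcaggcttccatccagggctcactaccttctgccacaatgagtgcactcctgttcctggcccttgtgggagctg
Prss3: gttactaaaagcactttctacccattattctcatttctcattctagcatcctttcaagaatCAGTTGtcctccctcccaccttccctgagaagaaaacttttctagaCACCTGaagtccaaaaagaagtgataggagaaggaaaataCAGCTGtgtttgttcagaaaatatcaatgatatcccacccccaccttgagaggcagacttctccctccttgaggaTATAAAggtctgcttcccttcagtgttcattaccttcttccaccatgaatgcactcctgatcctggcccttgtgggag

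Of the 8 genes, 5 were at least 2-fold higher on the MIST1-LSL array, 4 of the 7 trypsinogens and Spink3, and 0 were at least 2-fold lower. Among the 17336 named genes whose higher level reached the floor, 1.44% differed at least 2-fold, of which 168 genes, or 0.969% of all, were higher in MIST1-LSL and 82, or 0.473%, were lower. The genes were chosen with these differences known, so nothing is read from the contrast of these shares. All but Try5 reached the floor on at least 1 array, which leaves 7 of 8. The median difference of these 7 was 2.14, and over all genes above the floor it was -0.03.

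Prss2, a trypsinogen, had the widest difference of the set. It read 10.60 in the MIST1-LSL stomach and 3.85 in the control stomach, a log2 difference of 6.75 or 108-fold. The control reading lay below the floor, so the exact fold is not established. With the control reading raised to the floor, the difference was 5.98.

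The gene 2210010C04Rik encodes the cationic trypsinogen of the mouse pancreas. It read 8.53 in the MIST1-LSL stomach and 3.14 in the control stomach, a difference of 5.39 or 42.0-fold. As for Prss2, the floor was reached on the MIST1-LSL array alone, and the difference was 3.91 with the control reading raised to it.

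Try4, another trypsinogen, read 9.56 in the MIST1-LSL stomach and 7.42 in the control stomach, a difference of 2.14 or 4.40-fold. Prss1 read 6.83 in the MIST1-LSL stomach and 4.72 in the control stomach, a difference of 2.11 or 4.32-fold. Both exceeded the floor on both arrays, Prss1 in control by a small margin. Their differences were 0.02 apart, against an SD of 0.21 between the differences of probe sets for the same gene, taken over the 500 genes that had more than 1 such probe set above the floor. That SD measures how probes behave within these 2 arrays and not how mice vary.

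The other 3 trypsinogens were within 1 log2 unit. Their probe sets had 8 probes each, the fewest of the set, whereas those of the 4 higher trypsinogens had 9 to 15. Whether the number of probes bears on these differences was not tested. Try10 read 5.38 in the MIST1-LSL stomach and 5.34 in the control stomach. Prss3 read 4.64 in the MIST1-LSL stomach and 4.81 in the control stomach, the only difference of the set below 0, at -0.16. Its MIST1-LSL reading exceeded the floor by a small margin. Its difference was smaller in size than the SD of 0.21 between probe sets, so its sign is not established. Try5 read 3.33 in the MIST1-LSL stomach and 2.95 in the control stomach, and was under the floor on both arrays, so its level was not measured. Across the 7 trypsinogens the differences spanned 6.75 to -0.16.

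Spink3 read 10.20 in the MIST1-LSL stomach and 5.57 in the control stomach, a difference of 4.63 or 24.7-fold. It was above the floor on both arrays, which held for 3 of the 5 genes at least 2-fold higher (Spink3, Try4 and Prss1). Its difference was 2.49 wider than that of Try4. Its order against 2210010C04Rik was not established, since the 5.39 of 2210010C04Rik rests on a control reading under the floor and came to 3.91 with that reading raised to the floor. Its probe set had 28 probes, whereas those of the trypsinogens had 8 to 15 and the median over all probe sets was 20.

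**Figure D1:**
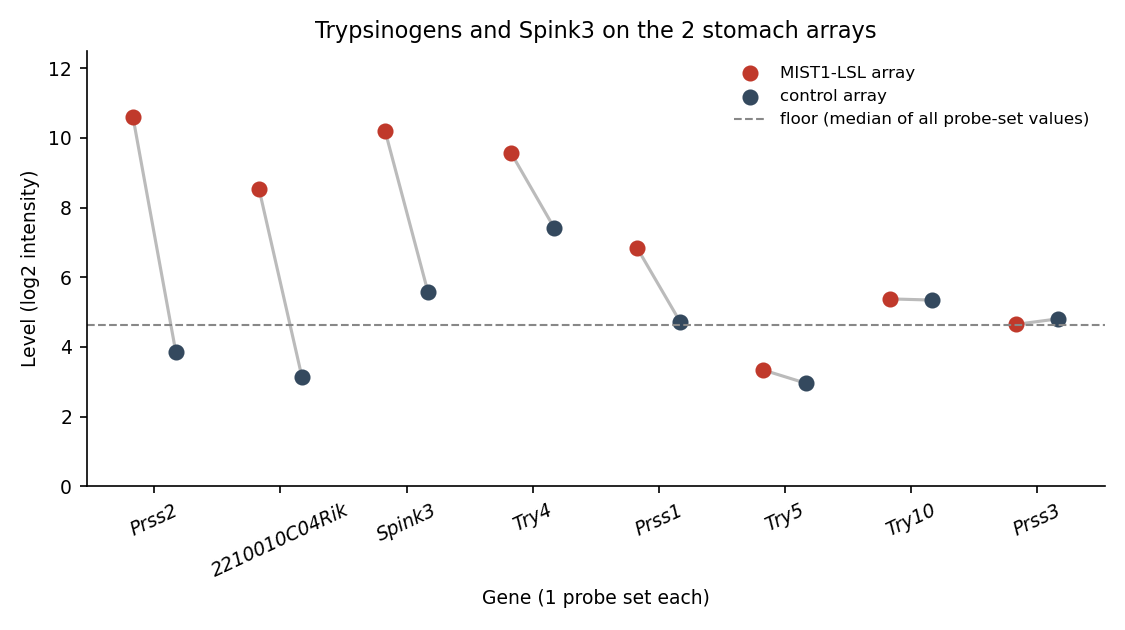
Log2 level of each trypsinogen and of Spink3 (1 probe set per gene) on the MIST1-LSL array (left point of each pair) and the control array (right point), in order of difference; the dashed line is the floor of 4.62. Prss2 and 2210010C04Rik are below the floor in control only, at 3.85 and 3.14, while the pairs of Try5, Try10 and Prss3 are less than 1 log2 unit apart.

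Trypsinogen genes arose by duplication and include closely related copies. Neither probe nor transcript sequences were analysed here, so a probe set may also bind the transcripts of other copies, and the share of each copy in a reading is uncertain. Of the other 6 copies in the cluster, 3 reached the floor. Gm5409, annotated as a pseudogene and related by its older name to Try10, read 10.14 in the MIST1-LSL stomach and 7.58 in the control stomach, a difference of 2.56. Gm5771 read 6.05 in the MIST1-LSL stomach and 5.36 in the control stomach, and Gm10334 read 5.89 in the MIST1-LSL stomach and 5.55 in the control stomach. These differences of 0.68 and 0.33 were under 2-fold. Below the floor, Gm2663 differed by 0.55, Gm4744 by -0.08 and 1810009J06Rik by -0.62. Counting all 13 copies, 9 reached the floor, and 5 of these differed at least 2-fold, all higher in MIST1-LSL.

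The workbook places the 7 trypsinogens in band B1 of chromosome 6 and Spink3 in band B3 of chromosome 18. In the gene order of RefSeq (GRCm38.p6), the trypsinogen copies lie inside the T cell receptor beta locus, 4 before its main run of V segments and 9 between the V segments and the D, J and C segments. The first side held 2210010C04Rik as its 1 copy at least 2-fold higher, and the second side held 4, Try4, Gm5409, Prss1 and Prss2. Copies under 2-fold lay among them, with Try10 at 0.03, Prss3 at -0.16 and Gm5771 at 0.68 in a row between Try4 and Gm5409. Of 37 T cell receptor beta genes of the same stretch on the array, 14 reached the floor and 0 were at least 2-fold apart, with a median of -0.18 over those 14. The widest difference among the 37, -1.27 for Trbj1-4, lay under the floor on both arrays. In the 34 genes between 2210010C04Rik and Try4, 33 of them V segments, the 21 on the array ranged from -0.83 to 0.71. The constant region genes Trbc1, at 6.41 in the MIST1-LSL stomach and 7.14 in the control stomach, and Trbc2, at 7.18 in the MIST1-LSL stomach and 7.81 in the control stomach, were lower by less than 2-fold.

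**Figure D2:**
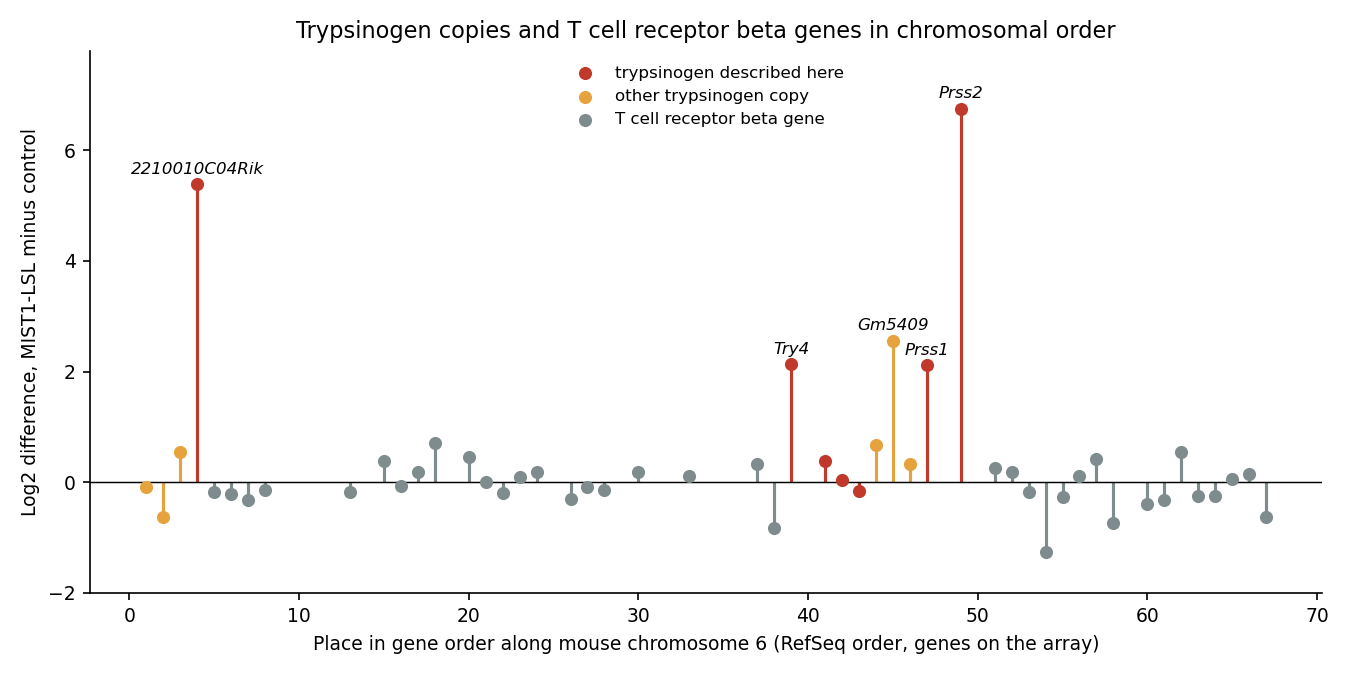
Log2 difference (MIST1-LSL minus control) of each gene on the array in RefSeq gene order along chromosome 6, from the first trypsinogen copy Gm4744 to Trbc2; places are ranks, not distances. 2210010C04Rik at 5.39 lies on one side of the V segments, whose values run from -0.83 to 0.71, and Try4 at 2.14 and Prss2 at 6.75 lie on the other side.

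The promoters shown above were compared with the same windows of other genes. Of the 7 trypsinogens 5 had a sequence in the table, as did 3 of the other copies, Gm5771, Gm10334 and Gm2663. All 8 held TATAAA on 1 or the other strand, against 13.6% of 32851 promoters of this length. In Try4 and Prss1 it began 31 bases before the start, in 2210010C04Rik 30, in Prss3 28 and in Prss2 16. All 8 also held the E-box CACCTG, searched on both strands as CACCTG or CAGGTG and contained in the wider motif CANNTG, against 20.2% of all promoters. The wider motif was present in 72.3% of promoters, so its presence in all 8 is not particular to them. The E-box CAGCTG occurred in Prss3 and Gm10334 and in 16.3% of all promoters, CATATG in none of the 8 and in 3.91% of all, and TTTCCC, read on both strands, in 4 of the 8 and in 25.2% of all. A match is a match of letters in this window, and binding was not measured. Copies share promoters by descent, so the 8 are not independent.

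After global alignment the promoters of Prss3 and Gm10334 were 86.4% identical, with differences of -0.16 and 0.33. Those of Prss1 and Gm5771 were 85.3% identical, with differences of 2.11 and 0.68, and those of Try4 and Prss1 were 73.9% identical, with 2.14 and 2.11. Each percentage is over all aligned columns, with the end gaps counted, so windows offset from each other score below their shared stretch. TATAAA began 31 bases before the start in Prss1 but 11 in Gm5771, and 28 in Prss3 but 11 in Gm10334. In Try4 and Prss1 it began at 31 in both, so the percentages of these pairs cannot be ranked. The promoters of Prss2 and 2210010C04Rik, which had the widest differences, were 48.5% identical. TATAAA began at 16 in Prss2 and 30 in 2210010C04Rik, so this percentage too may lie below that of their shared stretch. Over all 28 pairs of trypsinogen promoters the median was 54.2%. A trypsinogen promoter and that of another zymogen from the list given below had a median of 46.5% over 80 pairs, limited to zymogens with a promoter sequence.

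By Euclidean distance over the log2 levels of both arrays, the genes outside the set nearest to Prss2 were the carboxypeptidase gene Cpb1 at 0.44, the chymotrypsin family genes Ctrl at 0.50 and Ctrb1 at 0.91, the lipase gene Pnlip at 1.15 and Reg1, a secreted lectin, at 1.38. This distance rests on 2 arrays, sets readings of different probes against each other and uses control readings under the floor for Prss2, Cpb1, Ctrl and Pnlip, so it describes readings and not measured levels.

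The lists that follow were drawn up with earlier results of these arrays known, so their counts describe them and support nothing. Among 13 zymogens that trypsin cleaves, 12 reached the floor, 9 of them at least 2-fold above control and 0 at least 2-fold below it, with a median difference of 3.10 against -0.03 over all genes above the floor. Besides Cpb1, Ctrl and Ctrb1, the elastase gene Cela3b differed by 4.84. Of these 12 genes 4 were under the floor in control, Cpb1, Ctrl and Cela3b among them, so their differences are not exact. Some precursors were high on both arrays. Pla2g1b, a phospholipase activated by trypsin, read 12.11 in the MIST1-LSL stomach and 12.30 in the control stomach. The highest reading of any probe set was 13.37 on the MIST1-LSL array and 13.38 on the control array. Ctrc, a chymotrypsin that in humans degrades trypsinogen, read 6.13 in the MIST1-LSL stomach and 5.67 in the control stomach, well short of the difference of Ctrl.

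Of 5 listed genes whose products activate or break down trypsinogen, 4 reached the floor and 0 were at least 2-fold apart. The list held Ctrc, given above, and left out trypsin itself, which also activates trypsinogen. Ctsb, cathepsin B, read 9.35 in the MIST1-LSL stomach and 9.44 in the control stomach, Ctsd, cathepsin D, 9.65 in MIST1-LSL and 9.50 in control, and Ctsl, cathepsin L, 7.77 in MIST1-LSL and 8.33 in control. Tmprss15, which encodes enteropeptidase, was under the floor on both arrays, at 3.95 in the MIST1-LSL stomach and 3.32 in the control stomach. Of the receptors that proteases such as trypsin cleave, F2rl1 read 6.56 on both arrays, F2r differed by 0.14, F2rl3 by 0.07 and F2rl2 by -0.49.

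Among other inhibitors, Spink4, a Kazal-type protein of intestinal goblet cells, was the 1 gene of 3 Spink family members above the floor that was at least 2-fold higher, at 11.69 in the MIST1-LSL stomach and 10.57 in the control stomach. Spink5, an inhibitor of squamous epithelium, read 8.92 in the MIST1-LSL stomach and 9.31 in the control stomach. Of 6 further trypsin inhibitors above the floor, 0 were at least 2-fold apart, with a median of 0.07. Serpina1e, an alpha-1-antitrypsin copy, had the widest difference among them, at 0.60. The 13 other Prss and membrane serine proteases above the floor held 0 genes at least 2-fold apart and a median of -0.17, with Prss33 at 0.43 and Prss27 at -0.42 as the extremes. These proteases share the trypsin fold but are no digestive zymogens.

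Transcription factors of acinar cells and receptors that drive their secretion were read next. Of 10 genes, 9 reached the floor and 0 were at least 2-fold apart, with a median of 0.00. Ptf1a, an acinar transcription factor, read 4.93 in the MIST1-LSL stomach and 4.05, under the floor, in the control stomach. Its difference of 0.88 was the widest of the list as read, but with that control reading the rank is not established. Rbpjl, the partner of Ptf1a, read 5.15 in the MIST1-LSL stomach and 5.20 in the control stomach. Gata6 differed by 0.35, the muscarinic receptor gene Chrm3 by -0.27 and the secretin receptor gene Sctr by -0.43.

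Markers of other cells were read beside the trypsinogens. Of 13 pancreatic acinar markers, 13 reached the floor, 10 differed at least 2-fold, all higher, and the median was 4.06, with a summed intensity of 18238 on the MIST1-LSL array and 6177 on the control array. Pla2g1b alone gave 4416 of the first sum and 5039 of the second. In control 6 of the 13 were under the floor, and the median was 3.49 with these readings raised to it. Sums here and below are over the genes of a list that reached the floor on at least 1 array. Besides Pnlip, Cpb1 and Ctrb1, Cela3b was among those furthest above control. Islet markers showed no such difference. Of 7, 3 reached the floor and 0 were at least 2-fold apart. The insulin genes Ins1 (3.57 in MIST1-LSL, 3.66 in control) and Ins2 (3.85 in MIST1-LSL, 3.97 in control) were under the floor on both arrays. The hormone genes Gcg (5.13 in MIST1-LSL, 5.01 in control) and Ppy (5.22 in MIST1-LSL, 5.55 in control) were above it on both. The summed islet intensity was 96.8 on the MIST1-LSL array and 109 on the control array. Of 6 duct markers, 5 reached the floor and 0 were at least 2-fold apart, with sums of 5158 on the MIST1-LSL array and 5370 on the control array. The duct channel gene Cftr was under the floor on both arrays, at 3.88 in MIST1-LSL and 3.80 in control. The stomach also expresses several duct markers, such as Krt19 and Car2. Acinar RNA present in the dissected tissue and trypsinogen made by gastric cells cannot be told apart here, nor can more cells of a type and more RNA per cell.

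Markers of cells of the stomach itself were read on both arrays. The proton pump genes Atp4a (11.43 in MIST1-LSL, 11.53 in control) and Atp4b (12.11 in MIST1-LSL, 12.13 in control) mark parietal cells. Parietal markers had a median of -0.10 over 7 genes, of which Slc26a7, an anion transporter, was the 1 at least 2-fold lower, at -2.49. Slc26a7 read 4.48 in MIST1-LSL, under the floor, and 6.97 in control, so its difference is not exact. Aqp4 differed by -0.77, with 3.96 in MIST1-LSL, also under the floor, and 4.73 in control. Slc26a9 read 9.07 in MIST1-LSL and 9.62 in control, a difference of -0.55. Of the 7 genes, 5 were below 0 and 2 above. The summed parietal intensity was 8109 on the MIST1-LSL array and 8689 on the control array. Chief cell markers had 4 of 5 genes above the floor, all below 0, with a median of -0.21, a sum of 9873 on the MIST1-LSL array and 11304 on the control array, and 0 genes at least 2-fold apart. Pgc, a pepsinogen, read 12.47 in the MIST1-LSL stomach and 12.66 in the control stomach. Pga5 had the widest difference of the list, -0.71, at 7.66 in MIST1-LSL and 8.37 in control.

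Human Paneth cells also make trypsin, so intestinal Paneth markers were read as well. Of 6, 3 reached the floor, and 2 alpha-defensins, Defa17 (8.05 in MIST1-LSL, 5.03 in control) and Defa24 (5.94 in MIST1-LSL, 3.79 in control), were at least 2-fold higher. Defa24 was under the floor in control. Lyz1, the Paneth lysozyme, read 4.80 in MIST1-LSL and 5.16 in control, and Mmp7, Ang4 and Itln1 were under the floor on both arrays. The summed Paneth intensity was 354 on the MIST1-LSL array and 82.3 on the control array. Mast cells carry tryptases, proteases related to trypsin, and 3 of 6 mast cell markers were at least 2-fold higher, with Fcer1a at 1.69 and a sum of 1149 on the MIST1-LSL array and 582 on the control array. Mcpt4, at 1.37, read 4.26 in control, under the floor. The tryptase genes Tpsab1 and Tpsb2 differed by 0.01 and 0.51. T cell markers, whose receptor locus holds the trypsinogens, had 3 of 8 genes above the floor, 0 at least 2-fold apart, and a sum of 259 on the MIST1-LSL array and 394 on the control array. The 3 were Trbc1 and Trbc2, the locus genes given above, and Cd3d. Cd3d differed by 0.11 and gave 29.2 of the first sum and 27.0 of the second. The part of the acinar, Paneth and mast cell signals in the trypsinogen differences was not tested.

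**Figure D3:**
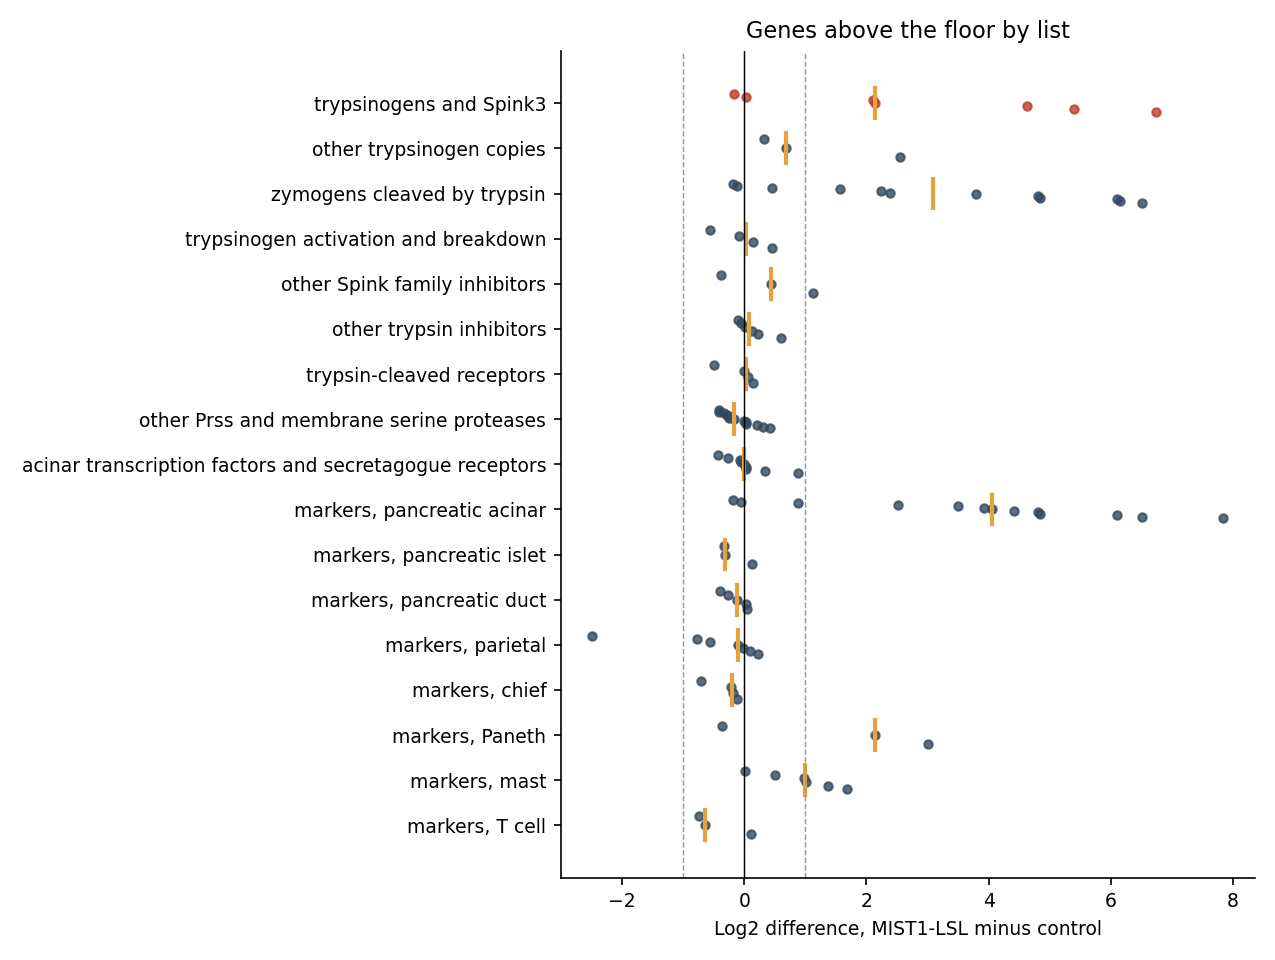
Log2 difference (MIST1-LSL minus control) of each gene above the floor, by list; points are genes, orange bars are list medians, dashed lines mark a 2-fold difference. The medians are 2.14 for the trypsinogens with Spink3, 3.10 for the zymogens, 4.06 for the acinar markers and 2.15 for the 3 Paneth markers. The Paneth value is that of Defa24, under the floor in control, and the median over all 6 Paneth markers was 0.26. The islet and duct markers stay within 1 log2 unit of 0.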

How the data were processed

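Per the labels' protocols, total RNA was amplified and labelled with biotin before hybridisation to Affymetrix arrays. Amplification can change the relative level of transcripts. Log2 levels per probe set were made by the authors with RMA and Partek, per the submitters' processing notes. RMA subtracts background, makes the arrays' distributions of probe intensities equal and then combines the probes of a set, which compresses low levels. The combined levels used here were not exactly equal in distribution, with medians of 4.60 on the MIST1-LSL array and 4.64 on the control array. For tool versions and the genome build, the sources used here give nothing. The deposited workbook also holds linear intensity values and the authors' ratio of MIST1-LSL to control. The deposited ratio equals 2 to the power of the log2 differences used here.

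Probe sets were named from the workbook and the names updated through RefSeq (GRCm38.p6). Transcript accessions matched 21749 probe sets, gene identifiers 2575 and symbols 4277, another 3870 kept their deposited name and 8874 had no gene. Where a gene had several probe sets, the one brightest on average over both arrays stood for it, and a gene was kept when its higher level reached 4.62. The size rule was a 2-fold difference. No test was possible with 1 array per genotype, and the number of arrays limits the precision. The members and the 16 gene lists were chosen with earlier results of these data known. Named were all members, up to 4 genes per list with the largest difference, any gene of a list of at most 6, and the 5 genes nearest to Prss2. Pla2g1b, Rbpjl, Bhlha15, Trbj1-4, Ins1, Ins2, Atp4a and Atp4b were also named, after their values were seen. Promoters were aligned with Biopython 1.88 (match 1, mismatch -1, gap opening -3, gap extension -1). The counting procedure was run on simulated data, with changes added to genes picked above the floor. That run checked the counting only, and not how mice vary or how readings under the floor behave. Alternatives were the series table, quantile normalization, median centring, other floors, averaged probe sets, other size rules and probe sets of at least 10 probes. Analyses used Python 3.11.15, numpy 2.4.6 and pandas 2.3.3. The authors' gene ontology sheets were not used here.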

Additional observations from a re-analysis of the deposited data

How the results depend on the processing

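Under the series table, quantile normalization and median centring the 8 differences moved by at most 0.04; these settings and averaging probe sets, of which each gene had 1, could hardly move them. Readings under the floor raised to it, a setting chosen after seeing the data, gave 5.98 for Prss2, 3.91 for 2210010C04Rik and 0 for Try5, medians of 3.49 for acinar markers, 1.32 for Paneth markers and 0.17 for other Spink inhibitors, and 49 genes at least 2-fold lower. Of 207 alternative values 182 stayed close to the reported ones (within 0.21 log2 units for a difference or median, within 1.5 times for a count) and 0 called differences reversed. The genes at least 2-fold higher, 168 as reported, came to 358 with no floor, 605 at 1.5-fold and 67 at 3-fold. Those lower, 82 as reported, came to 198, 574 and 24, and to 42 with the floor at the 75th percentile. Genes of the lists at least 2-fold lower came to 5 at 1.5-fold. With no floor, list medians were 2.39 for zymogens, 0.44 for the other trypsinogen copies, 0.052 for other Spink inhibitors and 0.26 for Paneth markers. With the higher floor they were 4.42 for acinar and 2.58 for Paneth markers. With at least 10 probes they were 3.80 for zymogens, 2.56 for the other copies, 0.89 for Paneth and -0.26 for T cell markers. The settings change which genes are counted; further causes were not tested. No paired analysis was possible because each genotype has 1 array. Without detection calls, readings under the floor set no exact fold. This touches Prss2, 2210010C04Rik and every gene of the lists under the floor on either array, Slc26a7, Defa24 and Mcpt4 among them.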
